A study of Arabidopsis thaliana with 11 samples.

Results

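The salt response of root pericycle cells was read from 5 of the 11 arrays of a study of Arabidopsis thaliana seedlings: 3 arrays of pericycle cells after salt against 2 arrays of pericycle cells grown without it, the pericycle control arrays of the series. Both groups came from the marker line J2731, and the other 6 arrays held cortex cells of the line J1551, 3 with salt and 3 without. Seedlings were harvested at 7 days: controls had never met salt, and treated seedlings spent their last 2 days in it after 5 days of control growth. On these days NaCl was at 25 and then 50 mM, and CaCl2 at 0.22 and then 0.375 mM. For controls both are listed as 0, so the salt label stands for NaCl and CaCl2 together. All roots, control roots included, spent 30 min in cell wall digestion, fluorescent protoplasts were taken by flow sorting, and amplified cDNA made from their RNA was biotin-labelled. The seedlings of a tank were pooled into a biological sample, so replicates are tanks, and each cell type rests on 1 marker line.

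The pericycle is the outermost cell layer of the central cylinder of the root, directly inside the endodermis. Lateral roots start from divisions of pericycle cells under the control of auxin, and ions pass through this layer on their way to the xylem. Salt exposes roots to osmotic stress and to sodium, and is known to slow root growth and the outgrowth of lateral roots.

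Each array gave a log2 expression value for 22746 probe sets once array control probe sets were left out. Of these, 13513 were paired with exactly 1 gene in the probe table used here. Probe sets whose mean over all arrays lay under 2.81, the 40th percentile, are called dim. A difference is always salt minus control on the log2 scale, with the limma standard error. "Rose" and "fell" mark an adjusted p under 0.05 in the fit of all 11 arrays with a spread shared by all groups.

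The 5 arrays differed in ways that the salt label did not explain. Across all probe sets the control arrays correlated at 0.947, and the salt arrays at 0.917 and 0.919 for pairs with salt replicate 1 and at 0.966 for the other pair. Salt replicate 3 correlated at 0.961 with control replicate 1, above the correlation of the control arrays with each other. Salt replicate 1 stood apart and had the lowest array weight in limma, 0.171. The median SD of a probe set within a group was 0.250 in pericycle control and 0.365 in pericycle salt arrays, against 0.181 and 0.139 in cortex control and cortex salt arrays. The spread shared by all groups is therefore too small for the pericycle: with a spread of its own for each group, the standard error was 1.41 times as large in the median.

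The sorted cells carried some pericycle marker signal. LBD16, a transcription factor of lateral root initiation, read 6.37 and 5.92 in control and 6.04, 7.07 and 6.20 in salt arrays, against cortex means of 2.26 without and 2.06 with salt. Only 3 of the 13 listed pericycle markers were measured, and another of them, LBD29, was dim. The mean of these 3 markers was 4.43 and 3.82 in control and 4.85, 4.10 and 3.94 in salt arrays, all above the 2.34 to 2.60 of the cortex arrays. That gap came mostly from LBD16: CR4, the other marker measured, read 4.60 and 3.42 in control and 6.37, 3.68 and 3.83 in salt arrays, against cortex means of 3.55 without and 3.80 with salt. Of 12 listed stele markers 2 were measured, and their mean was 4.97 and 4.97 without and 4.78, 4.05 and 4.51 with salt. On the cortex arrays it was lower, at 2.96 to 3.79. The members differed: LHW read 6.60 and 7.16 without and 5.91, 5.84 and 5.45 with salt (adjusted p = 0.0859), lower on every salt array, while PHV, which was dim, read 3.34 and 2.78 without and 3.66, 2.26 and 3.57 with salt, with overlapping groups. The phloem marker OPS, 1 of 12 listed, read 6.30 and 5.66 without and 7.80, 6.93 and 6.51 with salt, so every salt array lay higher. Its cortex arrays read 3.99 to 4.49, under every pericycle array. The 3 of 8 cortex markers measured averaged 3.20 and 3.55 without and 2.98, 3.00 and 3.15 with salt, lower on every salt array. On the cortex arrays themselves these markers averaged 2.51 to 2.97, so they did not set cortex apart from pericycle cells. AT1G62500 and JKD among them were dim, and AT1G09750 read 5.36 and 6.38 without and 5.11, 5.11 and 6.12 with salt, with overlapping groups. The cortex means of AT1G09750 were 5.05 without and 4.41 with salt. The root hair markers EXPA7 and EXPA18, of 22 listed, averaged 4.33 and 3.61 without and 2.57, 2.68 and 4.36 with salt, and the groups overlapped. Their mean on the cortex arrays ran from 2.82 to 5.30. AGL42, the measured 1 of 11 root cap and stem cell niche markers, was dim except on salt replicate 1, where it read 4.38 against 1.91 to 2.55 on the other pericycle arrays. JKD, the 1 of 14 endodermis markers measured, was dim, and 0 of 16 xylem markers were measured. None of these markers passed the test for salt. In sorted bulk samples a smaller share of a cell type and less RNA per cell cannot be told apart, and the part of cell composition in the results was not tested.

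RNA quality was read as the difference between probe sets at the 3′ and 5′ ends of control transcripts. For actin this was 2.02 and 2.50 in control and 2.81, 2.94 and 3.03 in salt arrays, higher on every salt array. For GAPDH it was 1.49 and 1.43 in control and 1.33, 1.35 and 1.10 in salt arrays, lower on every salt array. The other 4 pairs of such probe sets overlapped between the groups. The part of RNA quality in the results was not tested.

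Probe sets called in pericycle cells with the shared spread went in both directions, with a median absolute difference of 1.51 on the log2 scale. Large differences pass more readily, so this median describes the calls alone. With the shared spread, 453 probe sets passed, 1.99% of those tested: 237 rose (1.04%) and 216 fell (0.95%). With a spread per group the count was 5 (0.022%), with a weight per array it was 32 (0.141%), and with only the 5 pericycle arrays fitted it was 0, where 1502 probe sets (6.6%) had an unadjusted p under 0.05 and the lowest adjusted p was 0.530. Leaving out 1 array at a time gave between 183 calls, without cortex salt replicate 2 or 3, and 1124, without pericycle control replicate 1. When single arrays were left out, 143 were called in every fit, 66 higher and 77 lower with salt. All 453 kept their sign in every fit in which they were tested. For calls whose groups do not overlap, leaving out or weighting arrays cannot change the sign. Every call had groups that did not overlap, which held for 21% of all probe sets (10.2% with every salt array higher and 10.8% with every salt array lower). With 2 against 3 arrays groups separate often, so a lack of overlap by itself says little about a gene.

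**Figure D1:**
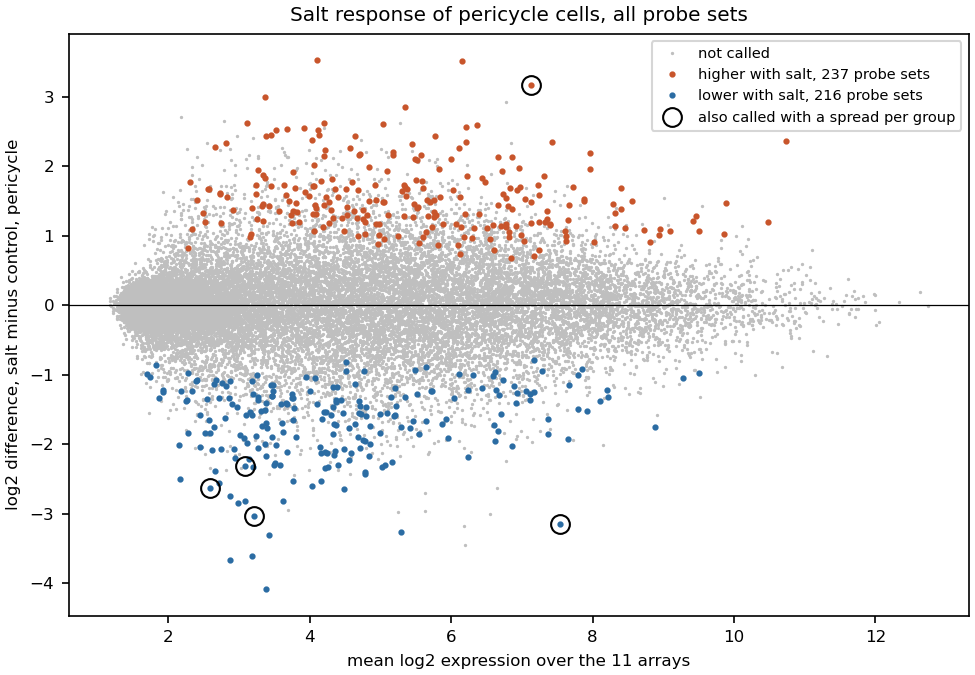
Each point is a probe set, with its mean log2 expression over the 11 arrays on the x axis and the log2 difference, salt minus control, in pericycle cells on the y axis. The 237 probe sets that rose and the 216 that fell are coloured, and rings mark the 5 also called with a spread per group, 4 of them lower with salt.

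Among the called probe sets, 418 differed by at least 1 and 98 by at least 2 on the log2 scale, 42 of these upward and 56 downward. Part of the response lay near the lower end of the scale. Of the probe sets that rose, 37 had a control mean under the dim limit, and of those that fell, 53 had a salt mean under it, so fold changes of such genes can be understated. Of the 453 probe sets, 231 were paired with exactly 1 gene, 121 higher and 110 lower with salt, while 216 had no gene in the table and 6 had several. Counted as genes with 1 probe set each, 230 of 13350 passed (1.72%), and the median difference of all genes was -0.01.

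The 3 genes called with the shared spread, with a spread per group and with each array left out all fell. AT4G11210 read 4.93 and 4.85 without salt and 2.40, 2.26 and 2.13 with it. It fell by 2.63 ± 0.156 (adjusted p = 2.74e-04, and 0.00641 with a spread per group). The salt arrays lay in a narrow band under the dim limit, far below both control arrays.

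AT1G67510 read 6.03 and 6.03 without salt and 2.65, 2.90 and 3.47 with salt. The control arrays were alike to the second decimal and the salt arrays spread over less than 1 unit below them. The gene fell by 3.02 ± 0.226, or 8.13-fold (adjusted p = 8.18e-04, and 0.00641 with a spread per group). AT5G50010 read 5.42 and 5.05 without and 3.08, 2.92 and 2.78 with salt, and fell by 2.31 ± 0.172 (adjusted p = 8.18e-04, and 0.0130 with a spread per group). The annotation gives these 3 genes a locus code only. The remaining 2 probe sets called with a spread per group have no gene in the table. Probe set 266270_at rose by 3.18 ± 0.274, from 4.05 and 3.73 to 7.41, 7.27 and 6.53, and probe set 266693_at fell by 3.15 ± 0.311, from 8.66 and 8.99 to 4.96, 5.98 and 6.09.

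The other genes said below to have risen or fallen were called with the shared spread and not with a spread per group, where the adjusted p of those that the rule in the methods names ran from 0.0772 to 0.449. Genes given below as values without such a verb were not called. Of the 38 called genes named by that rule, 18 passed in all 11 fits that left out 1 array and 20 missed in at least 1. Leaving out any cortex array lost 17 to 19 of the 38, leaving out pericycle control replicate 2 lost 15 with adjusted p up to 0.155, pericycle salt replicate 2 lost 11, pericycle control replicate 1 lost 7, pericycle salt replicate 1 lost 2 and pericycle salt replicate 3 lost 1. For each gene, the number of these 11 fits that it passed is given below.

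The largest fall of a named gene was that of IAA29, a member of the Aux/IAA family of repressors of auxin-responsive transcription. IAA29 read 7.47 and 6.72 in control and 2.65, 2.71 and 3.68 in salt arrays. Its lowest control value was about 3 units above its highest salt value. The difference was -4.09 ± 0.450, a 17-fold fall (adjusted p = 0.00600, passed in 11 of 11 fits), and its adjusted p with a spread per group was 0.112. In cortex cells IAA29 stayed near the lower end of the scale, at 2.32 without and 2.34 with salt.

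IAA29 was the 1 called gene of 16 measured in the list of auxin signalling and transport, which held Aux/IAA, GH3 and YUC genes. That share was 6.25%, against 1.72% of all genes. All lists here were chosen with earlier results of these data known, so a share above that of all genes is not read as a result. The median of the list was -0.02, and 7 of its members had a positive difference. Of the 4 measured genes of lateral root initiation, 0 were called and the median was 0.15. CR4, a receptor kinase also known as ACR4 that acts in formative divisions of the pericycle, differed by 0.62 ± 0.693, with overlapping groups and its highest value on salt replicate 1. LBD29, a target of auxin response factors, was dim at 2.33 and 2.13 without and 2.13, 1.56 and 1.79 with salt.

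Of 35 measured peptide and receptor genes, 1 fell and 1 rose (5.71%, against 1.72% of all genes), and the median was -0.06. PSY1R, a receptor kinase for a sulfated peptide that promotes cell expansion, read 4.79 and 5.32 without and 1.89, 2.58 and 2.25 with salt. It fell by 2.81 ± 0.323 (adjusted p = 0.00687, passed in 11 of 11 fits). RALFL33, of the family of rapid alkalinization factor peptides, rose by 0.87 ± 0.188 (adjusted p = 0.0485), from 5.56 and 5.33 to 6.39, 6.40 and 6.17, and passed in 2 of 11 fits.

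ORA47, an AP2/ERF factor of jasmonate synthesis, fell by 2.64 ± 0.500, or 6.22-fold (adjusted p = 0.0318, passed in 4 of 11 fits). Its values were 6.88 and 7.20 in control arrays, which were close together, and 5.43, 4.25 and 3.54 in salt arrays, which spread over nearly 2 units. It was the 1 called gene of 8 measured in the jasmonate and wounding list (12.5%, against 1.72% of all genes), whose median was 0.03. Of the 7 measured WRKY, NAC and MYB factors 0 were called (median 0.10), nor was EIN3, the measured gene of ethylene response. EIN3, a transcription factor that acts at the end of ethylene signalling, read 8.03 and 8.12 without and 7.90, 7.73 and 8.37 with salt. WRKY6 read 7.65 and 8.12 without and 7.01, 7.37 and 7.73 with salt, and WRKY53 read 5.27 and 4.74 against 7.14, 4.28 and 4.98. The high WRKY53 value came from salt replicate 1, and the other salt arrays lay at or near control level. AGL16, a MADS-box factor, was the 1 call among 51 other named transcription factors (median -0.01), a share of 1.96%, near that of all genes. It fell by 0.95 ± 0.180 (adjusted p = 0.0313, passed in 3 of 11 fits). Of 4 measured cytokinin and gibberellin genes and 2 cell cycle genes, 0 were called. The gibberellin receptor genes GID1A and GID1C differed by 0.33 ± 0.311 and 0.21 ± 0.309. SIM, an inhibitor of cyclin-dependent kinases, read 5.31 and 5.44 without and 3.74, 4.71 and 5.27 with salt (adjusted p = 0.370), and CDC27a differed by 0.67 ± 0.403.

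**Figure D2:**
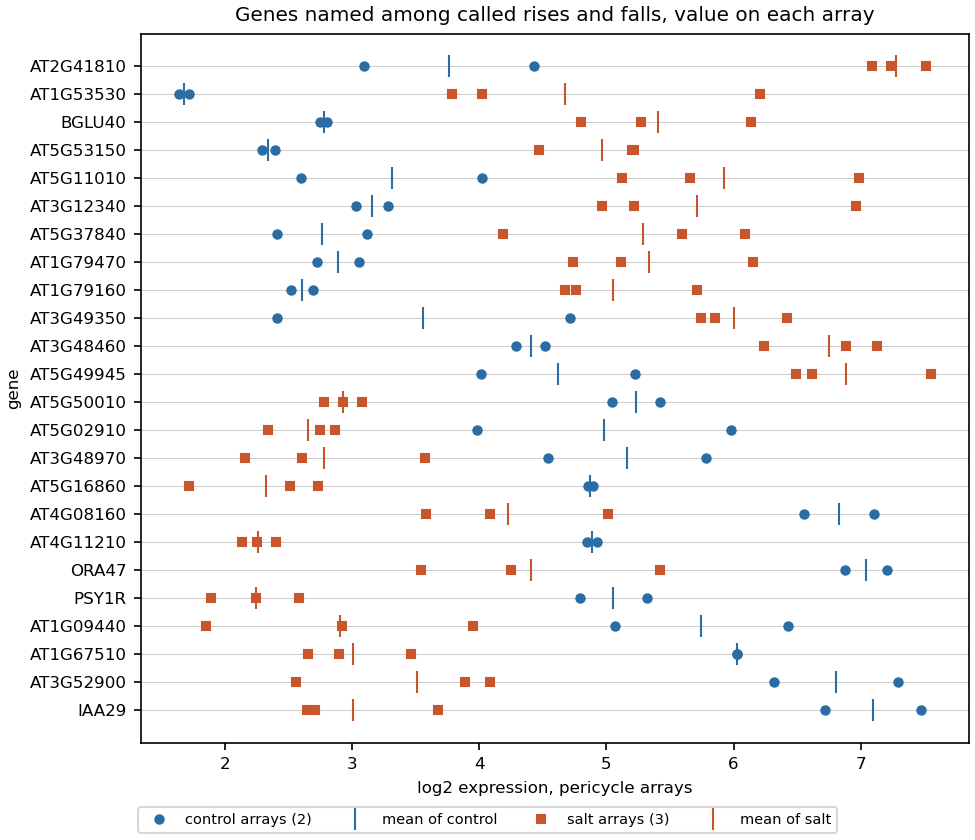
Log2 expression on the x axis of the 12 rises and 12 falls that the rule names (y axis), with 1 point per pericycle array, circles for the 2 control and squares for the 3 salt arrays, and bars at group means. The groups do not overlap for any gene shown, as the rule asks. AT5G50010 is included because it was also called with a spread per group, ahead of LYC and AT1G25320, which fell slightly more, and IAA29 at the bottom has the widest gap between means.

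In the lists of water deficit and ion transport, 1 gene was called. LEA4-5, a late embryogenesis abundant protein that accumulates in drying tissue, read 6.71 and 5.91 without and 7.88, 7.36 and 8.16 with salt. As for every rise called, each salt array lay above both control arrays. The gene rose by 1.50 ± 0.313, or 2.82-fold (adjusted p = 0.0432, passed in 3 of 11 fits). It was the 1 call among 13 measured dehydrin, late embryogenesis and water-deficit genes, of which 11 had a positive difference (median 0.17), a share of 7.69% against 1.72% of all genes. None of the 8 measured sodium and potassium transport genes was called, and their median was -0.03. CHX19, of the cation/proton exchanger family, read 4.15 and 2.99 without and 3.15, 3.11 and 3.16 with salt, and VHA-A2, a vacuolar proton pump subunit, read 5.63 and 5.65 without and 6.61, 5.57 and 5.80 with salt.

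Among 18 measured genes of xylem loading and nutrient transport, 0 were called and the median was 0.01. The sugar carrier genes SWEET11 and SWEET2 differed by -0.72 ± 0.293 and 0.70 ± 0.604. CML42, a calmodulin-like calcium sensor, rose by 1.68 ± 0.300, or 3.20-fold (adjusted p = 0.0259, passed in 6 of 11 fits), from 3.38 and 3.16 to 5.58, 4.43 and 4.83. The highest control value lay about 1 unit under the lowest salt value. It was the 1 call among 14 measured calcium genes (7.14%, against 1.72% of all genes). Their median was 0.23, with 10 positive differences, and the median of all genes was -0.01. The lists of abscisic acid signalling, aquaporins, the suberin barrier, and proline and sugar metabolism had no gene paired with a probe set in the table and were not analysed here.

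In the 3 lists of cell wall genes, 2 of 42, 2 of 25 and 0 of 14 measured genes were called, and 1.72% of all genes. GH9C2, an endoglucanase of the glycoside hydrolase 9 family, read 5.23 and 5.44 without and 6.97, 7.46 and 7.07 with salt. It rose by 1.83 ± 0.210 (adjusted p = 0.00687, passed in 11 of 11 fits). XTH16, a xyloglucan endotransglucosylase/hydrolase, fell by 1.75 ± 0.344 (adjusted p = 0.0352, passed in 2 of 11 fits), from 4.73 and 4.96 to 3.74, 2.48 and 3.07. These were the 2 calls of the 42 wall loosening and xyloglucan genes, with a median of -0.07.

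In the list of pectin and wall acetylation, 2 of 25 measured genes were called and the median was -0.37, the lowest among lists of at least 4 genes, with 7 positive differences. The list held mostly TBL genes, whose family includes acetyltransferases of wall polysaccharides. TBL34 read 5.10 and 5.05 without and 3.32, 2.90 and 3.40 with salt, and fell by 1.87 ± 0.206 (adjusted p = 0.00600, passed in 11 of 11 fits). PMEPCRF, a pectin methylesterase, read 4.83 and 3.46 without and 6.18, 6.07 and 5.59 with salt, and rose by 1.80 ± 0.347 (adjusted p = 0.0330, passed in 3 of 11 fits). The salt arrays agreed to within 1 unit and the control arrays did not. Of 14 measured genes of cellulose and the secondary wall, 0 were called (median -0.18). CCR2, a cinnamoyl-CoA reductase of lignin synthesis, read 2.09 and 4.33 without and 6.95, 3.92 and 4.83 with salt, with overlapping groups. CSLC6, of the cellulose synthase-like family, read 6.95 and 7.27 without and 5.23, 5.54 and 6.82 with salt (adjusted p = 0.156).

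BGLU40, a beta-glucosidase, had the largest rise of a gene with a symbol. It read 2.75 and 2.80 without and 4.80, 6.14 and 5.27 with salt, so the control arrays lay under the dim limit. The rise was 2.63 ± 0.343, or 6.19-fold (adjusted p = 0.00987, passed in 11 of 11 fits), with an adjusted p of 0.0993 with a spread per group and 0.0378 with a weight per array. UGT85A2, a glycosyltransferase, rose by 1.02 ± 0.204 (adjusted p = 0.0374, passed in 4 of 11 fits), and UGT80B1, a sterol glucosyltransferase, fell by 1.59 ± 0.267 (adjusted p = 0.0204, passed in 11 of 11 fits). These were the 3 calls among 89 measured glycosyltransferase, beta-glucosidase and cytochrome P450 genes (3.37%, against 1.72% of all genes, median 0.01).

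AER, a reductase of reactive alkenals, was the 1 call among 19 redox and glutathione transferase genes (5.26%, against 1.72% of all genes, median -0.05). It rose by 2.27 ± 0.374, or 4.81-fold (adjusted p = 0.0195), from 4.25 and 3.82 to 6.62, 6.44 and 5.84, and missed only without pericycle control replicate 2 (adjusted p = 0.0628). PRX52, a wall peroxidase and the measured gene of its list, read 2.39 and 1.87 without and 5.08, 4.99 and 3.03 with salt. Salt replicate 3 lay much closer to control than the other salt arrays, and the difference of 2.23 ± 0.513 did not pass (adjusted p = 0.0582).

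Of 31 measured genes of protein folding and turnover, 2 rose and 1 fell (9.68%, against 1.72% of all genes, median 0.16). The U-box ubiquitin ligase genes PUB22 and PUB49 rose by 1.09 ± 0.202 (adjusted p = 0.0299, passed in 4 of 11 fits) and 1.19 ± 0.225 (adjusted p = 0.0318, passed in 3 of 11 fits). ATG8C, which encodes an autophagosome coat protein, fell by 0.94 ± 0.182 (adjusted p = 0.0330, passed in 3 of 11 fits). Over all lists, 18 of 402 different measured genes were called (4.48%, against 1.72% of all genes), 0 of them with a spread per group, 1 with a weight per array and 27 without pericycle salt replicate 1. The lists were chosen with earlier results known, so this share says nothing about salt genes in general. Medians of lists with at least 4 genes ran from -0.37 to 0.23. Of 20 list medians, 4 changed sign when the arrays were quantile normalized or centred on their medians (auxin, sodium and potassium, redox, and other transcription factors) and 4 without pericycle salt replicate 1 (lateral root, xylem loading, glycosyltransferase, and WRKY, NAC and MYB genes).

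**Figure D3:**
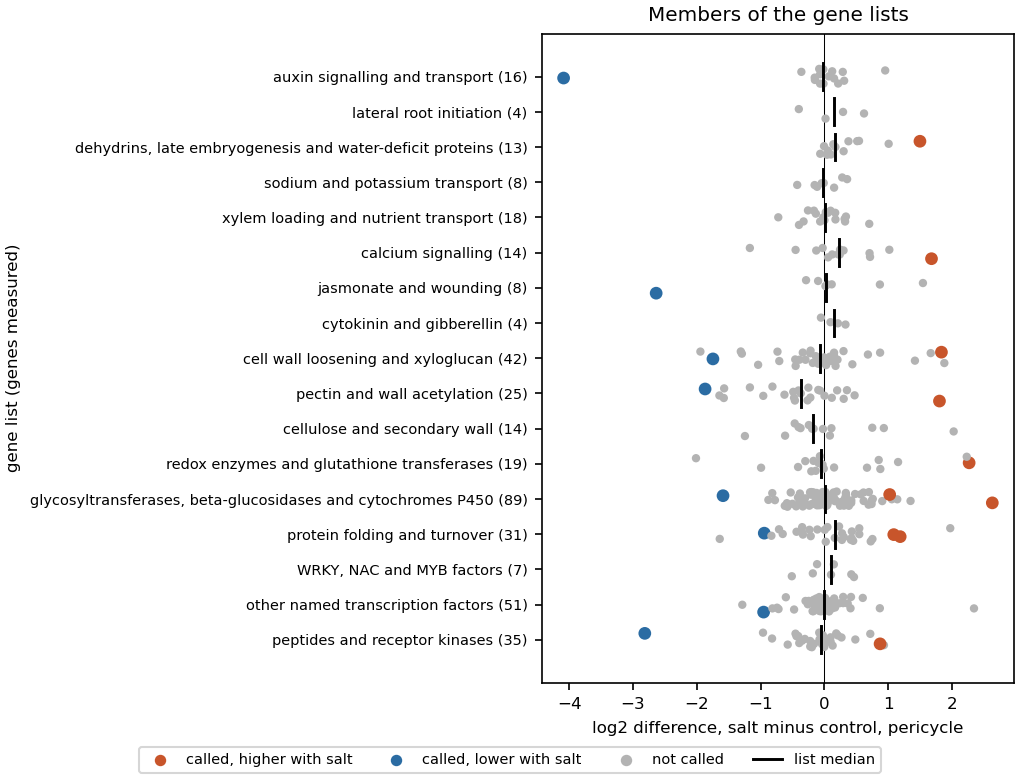
Log2 difference, salt minus control, in pericycle cells (x axis) for each measured gene of the lists (y axis, with the number of genes; lists with 1 or 2 genes are not drawn). Coloured points are called genes and black bars are list medians, which lie between -0.37 and 0.23.

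Genes to which the annotation gives a locus code as symbol made up most of the largest changes. The same held for the calls as a whole: 40 of the 231 called probe sets with exactly 1 gene carried another symbol. The share over all probe sets with 1 gene was not counted, so nothing about the salt response follows from this. AT2G41810 had the largest rise of a named gene, from 4.43 and 3.10 to 7.09, 7.51 and 7.24. The salt arrays agreed closely while the control arrays differed by more than 1 unit, and the rise was 3.52 ± 0.468, or 11.5-fold (adjusted p = 0.0102, passed in 11 of 11 fits). AT1G53530 rose by 3.00 ± 0.599 from 1.64 and 1.72 to 6.21, 3.79 and 4.02, with the highest value on salt replicate 1, and passed in 3 of 11 fits. AT5G53150, AT1G79470, AT1G79160, AT3G48460 and AT5G49945 rose by 2.27 to 2.62 and passed in 11 of 11 fits. AT5G11010, AT3G12340, AT5G37840 and AT3G49350 rose by 2.44 to 2.61 and passed in 3 or 4 of 11. AT3G52900 fell by 3.30 ± 0.436 from 6.32 and 7.29 to 2.56, 3.89 and 4.08 (adjusted p = 0.00999, passed in 11 of 11 fits, adjusted p = 0.0772 with a spread per group). AT5G16860 and AT4G08160 fell by 2.56 and 2.60 and passed in 11 of 11 fits, and AT1G09440, AT3G48970 and AT5G02910 fell by 2.84, 2.39 and 2.33 and passed in 3, 4 and 4.

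In all, 40 called genes carried a symbol, 23 that rose and 17 that fell, and 16 of them passed in all 11 fits. The rule named 18 of these, and the other 22 were chosen after their values were seen. PRN, a cupin-fold pirin protein, read 7.37 and 7.00 without and 8.59, 8.56 and 8.56 with salt, and rose by 1.38 ± 0.172 (adjusted p = 0.00987, passed in 11 of 11 fits). GTR1, a glucosinolate transporter of the plasma membrane, rose by 1.55 ± 0.201 (adjusted p = 0.00987, passed in 11 of 11 fits), from 7.87 and 7.27 to 9.21, 9.07 and 9.08. TUA1, an alpha-tubulin, rose by 1.63 ± 0.258 from 4.20 and 4.96 to 6.44, 6.38 and 5.82 and passed in 11 of 11 fits. As for every rise called, all salt arrays of these 3 genes lay above both control arrays.

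Further rises with a pass in 11 of 11 fits were those of PDF1A, an organellar peptide deformylase, by 1.78 ± 0.266, of ATSIK by 1.69 ± 0.244, and of ATJ1, a DnaJ co-chaperone, by 1.22 ± 0.158. LSM3B, an Sm-like protein of RNA processing, rose by 1.60 ± 0.274 and passed in 9. CP5, SIZ1 (a SUMO ligase), ETL1, B120, FMO and EULS3 (a lectin) rose by 1.14 to 1.96 and passed in 2 to 4. Among the falls, ATL4H, of a family of RING-type ubiquitin ligases, fell by 1.83 ± 0.298 and passed in 11 of 11 fits. CHIL, a chalcone isomerase-like protein of flavonoid synthesis, fell by 2.17 ± 0.389 and passed in 6, IQD19, a calmodulin-binding protein, fell by 2.29 ± 0.475 and passed in 2, and scpl35 and EXO, a gene of brassinosteroid-promoted growth, fell by 1.23 and 1.01 and passed in 4 and 3.

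**Figure D4:**
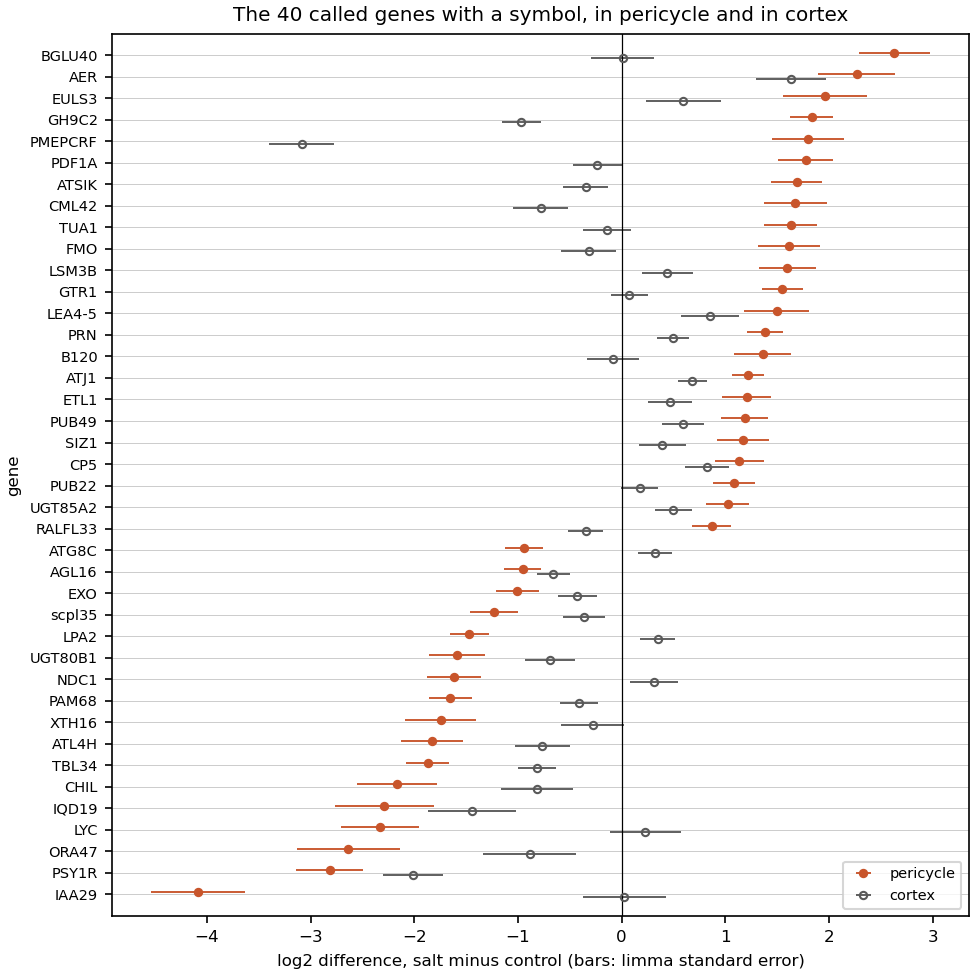
Log2 difference, salt minus control, with limma standard errors (x axis) of the 40 called genes with a symbol (y axis), in pericycle cells (filled) and in cortex cells (open). IAA29, at -4.09 in pericycle, lies at 0.03 in cortex cells, and PMEPCRF has opposite signs in the cell types.

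The same treatment of the seedlings gave 946 calls in cortex cells (4.16%, or 3.65% of genes with 1 probe set each). Of these, 73 were called the same way in pericycle cells, 30 upward and 43 downward, which is 16.1% of the pericycle and 7.72% of the cortex calls, while 5 were called in opposite directions. Of the 237 probe sets that rose in pericycle cells, 176 (74.3%) had a positive difference in cortex cells, with a median of 0.30, against 52.4% of all probe sets. Of the 216 that fell, 169 (78.2%) had a negative one, with a median of -0.36. The difference of the responses itself, pericycle minus cortex, passed for 190 probe sets (0.835%), and for 61 with a spread per group. Among the 453 probe sets called in pericycle cells, it passed for 63, 27 that rose and 36 that fell, and with a spread per group for 18. The pericycle response is part of this difference, so a pass is favoured among probe sets called for it.

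PSY1R fell and AER rose in both cell types. PSY1R fell by 2.01 in cortex cells (adjusted p = 0.00392) and its responses differed by -0.80 ± 0.434 (adjusted p = 0.525), and AER rose by 1.63 there (adjusted p = 0.0245) with a difference of responses of 0.63 ± 0.502 (adjusted p = 0.694). TBL34 fell by 0.82 in cortex cells (adjusted p = 0.0369). PMEPCRF fell by 3.09 (adjusted p = 5.39e-04) and GH9C2 by 0.97 (adjusted p = 0.0190) in cortex cells, while both rose in pericycle cells. The responses differed by 4.89 for PMEPCRF (adjusted p = 0.00300, and 0.00358 with a spread per group) and by 2.80 for GH9C2 (adjusted p = 0.00358, and 0.0116 with a spread per group).

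**Figure D5:**
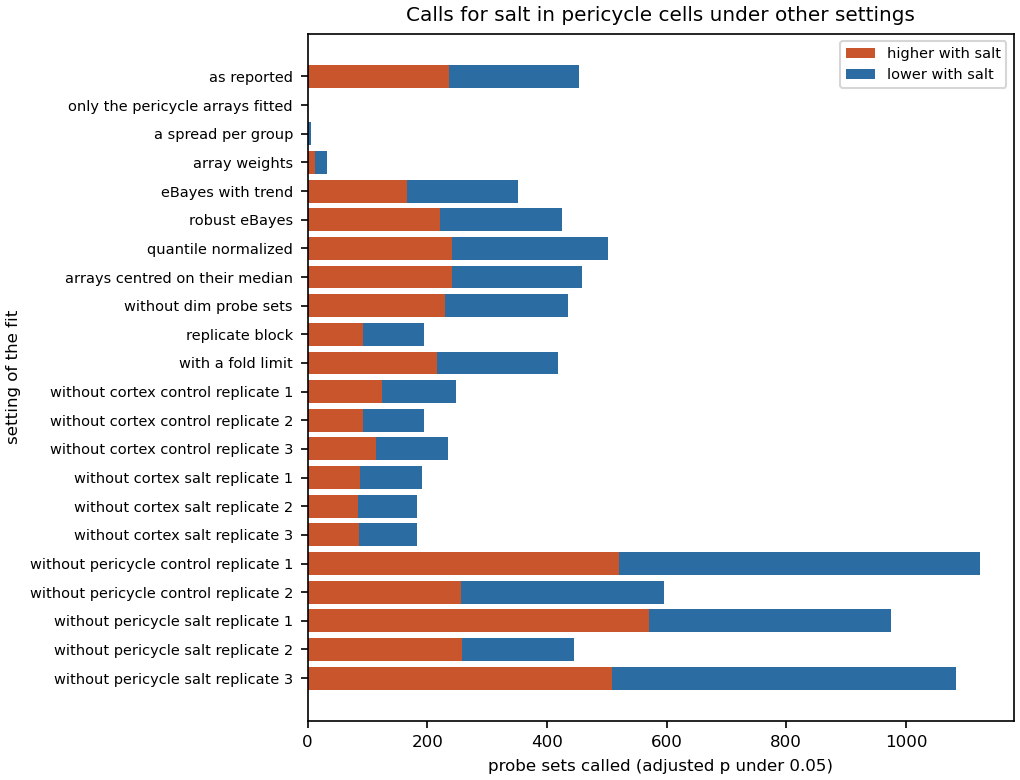
Number of probe sets called for salt in pericycle cells (x axis) under each setting of the fit (y axis), split into those higher and lower with salt. The count was 453 as reported, 5 with a spread per group, 0 with only the pericycle arrays fitted, and between 183 and 1124 when 1 array was left out.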

How the data were processed

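Per array, the authors deposited log2 values of 22810 probe sets of an Affymetrix chip. RMA and limma are named, without versions or roles, per the submitters' processing notes. What set the low minima of the log2 values is not stated there. The values were used as deposited, without the 64 array control probe sets. The 11 arrays entered 1 fit in R 4.3.3 with the limma package (3.58.1; lmFit, then contrasts.fit and eBayes), with a mean per group, no block, 7 residual and 2.96 prior degrees of freedom. P values are two-sided and Benjamini-Hochberg adjusted over 22746 probe sets. The fit was run on simulated arrays with known changes as a check of the code. That check does not show that the shared spread suits the pericycle arrays. Precision is limited by the number of arrays.

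Probe sets took their gene from the platform's probe table: 13513 had 1 gene, 503 several and 8730 none, and 13436 were matched to RefSeq symbols (TAIR10.1). No coordinates or sequences were used. A gene in a list is represented by its brightest probe set.

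Named genes are the 12 largest rises and 12 largest falls among calls with 1 gene and groups apart, those also called with a spread per group (arrayWeights) first, and up to 4 called members of each of 24 lists, or up to 2 as values where none was called. The members, gene lists and marker lists were chosen with earlier results of these data known. The marker symbol PEP matched an unrelated gene and was left out. Replicate numbers did not pair arrays. Alternatives were another variance model, normalization, filters and leaving out each array.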

Additional observations from a re-analysis of the deposited data

Results flagged for a closer look

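For 11 of the 38 called genes that the rule names, the salt responses of pericycle and cortex cells differed by the test of the difference itself, and for 6 of these also with a spread per group. Over all probe sets the difference passed for 0.835%. The 38 genes were chosen by their pericycle response, which is part of this difference, so the choice itself favours a pass. The difference is pericycle minus cortex on the log2 scale. No group has 4 or more arrays, so no array was tested as an outlier.

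With a called difference by both spreads, AT4G11210 had -2.33 (adjusted p = 0.00254, and 0.00665 with a spread per group) and AT1G67510 had -2.55 (adjusted p = 0.00572, and 0.00980). AT5G50010 had -1.69 (adjusted p = 0.0119, and 0.0370 with a spread per group). On the cortex arrays these genes were near the lower end of the scale already without salt. AT4G11210 averaged 2.14 without and 1.84 with salt there, AT1G67510 2.62 and 2.15, and AT5G50010 2.75 and 2.13. A fall as large as in pericycle cells could not have been seen from such values. CML42 had 2.46 (adjusted p = 0.0269, and 0.0453), with a negative difference in cortex cells that did not pass there. GH9C2 had 2.80 and PMEPCRF had 4.89, and with the shared spread each was called in opposite directions in the cell types. Their rises in pericycle cells did not pass with a spread per group (adjusted p = 0.132 and 0.175).

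With the shared spread alone, IAA29 had -4.11 (adjusted p = 0.0169, and 0.0656 with a spread per group), BGLU40 had 2.62 (adjusted p = 0.0352, and 0.0625) and AT3G52900 had -3.06 (adjusted p = 0.0490, and 0.0587). The cortex means of IAA29 were 2.32 without and 2.34 with salt, and those of AT3G52900 were 2.39 and 2.15. Both genes thus also lay near the lower end of the scale there. AT2G41810 had 3.59 (adjusted p = 0.0349, and 0.138 with a spread per group). ATG8C had -1.26 (adjusted p = 0.0499, and 0.190).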

How the results depend on the processing

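The count of 453 depended most on how the spread was estimated: it was 5 with a spread per group (1923 probe sets, 8.45%, with an unadjusted p under 0.05), 32 with array weights and 0 with only the pericycle arrays fitted, where 3 residual degrees of freedom remain. With the replicate block it was 194, and 19 of the 38 named calls were lost. Residuals of same-numbered arrays of different groups correlated at -0.151 to 0.107 over 15 pairs. With so few arrays per group, this cannot decide whether the numbers pair the arrays. Leaving out 1 array gave 183 to 1124. Trend (351), robust eBayes (426), quantile normalization (502), median centring (458), no dim probe sets (435) and a fold limit (418) kept it within 1.5 times. Without pericycle salt replicate 1, chosen after seeing the data, a spread per group gave 7 and the pericycle arrays alone 0. For the difference of responses the count of 190 became 61 with a spread per group, 121 with the block, 53 to 635 with 1 array left out, and 56 with a spread per group without that array. None of the 38 called genes that the rule names changed direction under the settings run. Their groups did not overlap, so only the replicate block and the other normalizations could have changed it. CR4, SWEET2, WRKY53, CHX19, EIN3 and GID1C, which were not called, changed sign under at least 1 setting. The number of arrays limits the precision, and the cause of these shifts was not tested.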

Other observations

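The 4 genes of this paragraph were picked after their values were seen. They form no list, and other genes of plastid proteins were not counted. LYC, a lycopene cyclase of carotenoid synthesis, read 4.93 and 6.32 without and 2.96, 3.58 and 3.36 with salt and fell by 2.33 ± 0.378 (adjusted p = 0.0187, passed in 11 of 11 fits that left out 1 array). PAM68 and LPA2, which act in photosystem II assembly, fell by 1.65 ± 0.207 and 1.47 ± 0.187 (both adjusted p = 0.00987, passed in 11 of 11 fits), with salt values of 2.00 to 2.19 and 2.49 to 2.57, under the dim limit. NDC1, of plastid quinone metabolism, fell by 1.62 ± 0.261 (adjusted p = 0.0182) and missed only without pericycle control replicate 2 (adjusted p = 0.0583). None of the 4 was called with a spread per group, where adjusted p ran from 0.148 to 0.193.

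AT3G13610, which the annotation also names F6'H1 and which acts in coumarin synthesis, fell by 2.29 ± 0.312 in pericycle and by 2.27 in cortex cells (adjusted p = 0.0105 and 0.00161). AT1G59740, also named as a member of the NRT1/PTR transporter family, rose by 1.78 ± 0.286 in pericycle cells, from 2.76 and 1.72 to 4.21, 4.12 and 3.74 (adjusted p = 0.0182), and differed by 0.05 in cortex cells. The unnamed probe sets 266270_at and 266693_at, called with a spread per group in pericycle cells, also rose by 1.61 and fell by 2.36 in cortex cells (adjusted p = 0.00537 and 0.00129).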
